A study of Rattus norvegicus with 11 samples.

Results

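The adrenergic receptors described here are 7 genes, Adra1a, Adra1b, Adra1d, Adra2a, Adra2b, Adra2c and Adrb1, taken by gene name. They are 7 of the 35581 names on a whole rat genome array and were measured by 9 of its 41012 non-control probes, with 3 probes for Adra1b and 1 for each of the others. RNA came from the medial prefrontal cortex of male rats of 4 months, 1 array per rat. One group of 6 had licked a spout for intravenous heroin in daily sessions, and the other group of 5 were yoked controls, whose saline infusions followed the timing of a heroin rat's own. Every rat had 14 days without drug and then an extinction session in the former drug chamber, without any infusion, directly before the tissue was taken. The comparison asks how receptor transcripts differed between rats with and without a heroin history after that session, and the shared session and chamber mean that neither group was an untreated baseline. Strain was not given in the sources used here. The tissue block ran from 4.2 to 2.2 mm anterior of Bregma per the sample records, and the cortex medial to the forceps minor was kept, so every value averages over all cells of that cortex. Fewer cells of a type and less RNA per cell cannot be told apart in such samples.

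Adrenergic receptors are membrane proteins with a bundle of helices that bind noradrenaline and adrenaline. In the cortex, noradrenaline is released from the axons of neurons whose cell bodies lie in the locus coeruleus, far from the dissected tissue, and it sets arousal and attention and is released in withdrawal and stress. The alpha-1 receptors (Adra1a, Adra1b, Adra1d) couple to Gq and phospholipase C, the alpha-2 receptors (Adra2a, Adra2b, Adra2c) couple to Gi and Go and reduce cyclic AMP, and the beta-1 receptor (Adrb1) couples to Gs and raises cyclic AMP. Adra2a and Adra2c also act as autoreceptors that limit noradrenaline release, though the autoreceptor transcripts of noradrenergic axons are made mainly in their distant cell bodies.

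The probes were strands of 60 nucleotides. A set of 4 of them is printed to show which stretch of each receptor's message the signal reports, since these 4 lie in coding sequence and 2 of them touch the NPxxY motif at the inner end of the seventh helix, a hallmark of this receptor class. Capitals mark the codons of that motif, which the Adrb1 probe enters only at its last 8 bases.
The second Adra1b probe: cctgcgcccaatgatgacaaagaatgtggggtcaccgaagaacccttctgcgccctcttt
The third Adra1b probe: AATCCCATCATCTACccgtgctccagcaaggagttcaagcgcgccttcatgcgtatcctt
Adra2a: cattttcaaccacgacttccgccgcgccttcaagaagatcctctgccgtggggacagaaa
Adrb1: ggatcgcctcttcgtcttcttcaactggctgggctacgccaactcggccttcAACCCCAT
The motif was searched on the printed strand in reading frames without a stop codon. The whole motif was found in 0.205% of all non-control probes, and in 0.866% when a motif broken off by the end of the probe after 8 or more bases was counted as well.

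The files give probe positions on build rn3. There, the Adra1b probes lay on the minus strand of chromosome 10. The second probe was at chr10:28946930-28946990, 55.8 kb from the third at chr10:28891147-28891206, and the first, at chr10:28890338-28890397, was 809 bases beyond the third. The Adra1d probe was at chr3:119185632-119185691 on the minus strand and the Adra2b probe at chr3:114774221-114774280 on the plus strand. The Adra1a probe was at chr15:46278703-46278762, the Adra2c probe at chr14:81110408-81110467 on the minus strand, and the Adrb1 probe at chr1:263237731-263237790. No position was listed for the Adra2a probe. The files name no exon or untranslated region for a probe. That the 4 printed probes are coding is background knowledge of these receptors, and no other probe was assigned to such a region. All 7 names and accessions matched RefSeq.

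Values are signals in units of the array median, that is, each background-subtracted intensity divided by the middle value of its own array. They serve to compare rats at 1 probe and say nothing about which receptor was more abundant, because probes differ in how well they bind. A probe was tested where the scanner software scored it well above background on all 11 arrays (25587 probes) and enough usable spots remained (25555 probes), among them 8 of the 9 receptor probes and 6 of the 7 genes. Array medians ran from 42.7 to 78.3 intensity units in heroin rats and from 58 to 83.2 in saline rats. With this scaling the median tested probe was 0.18 higher in heroin rats on the log2 scale. Without the detection filter the median was 0.098 over 40980 probes. A receptor's change is set beside 0.18 and not only beside 0. Below, a median or share over all probes is taken over the tested probes. The 0.18 is not a fixed offset for every probe. Quantile normalization moved Adra1d from 0.35 to 0.09 and Adra2a only from 0.23 to 0.22. Of the 25555 probes, 458 (1.79%) were higher in heroin rats and 236 (0.923%) were lower at both thresholds of the study's methods, 1.4-fold or more with an unadjusted p below 0.02. Scaling to the 75th percentile turned that split to 33 higher and 746 lower, and scaling to the middle of the detected probes turned it to 42 higher and 634 lower. In saline replicate 5 the summed striatal markers were at 22.6 array medians, against 8.04 to 11.6 in all other rats. The largest saline values were 13.3 for Rgs9 and 5.92 for Adora2a, against heroin maxima of 5.48 and 3.0. For Drd1a and Drd2 the saline maxima were 1.24 and 0.543, against 0.977 and 0.487. The Ppp1r1b saline maximum, 2.49, was below the heroin maximum, 2.63. No probe (0.0%) had a Benjamini-Hochberg adjusted p under 0.05 in limma, while 4729 (18.5%) had an unadjusted p under 0.05.

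None of the 6 tested receptor genes passed both thresholds, in either direction. The mean of the brightest probe was above the saline mean for 5 genes (83.3%, beside 78.7% of all tested probes) and below it for Adra2b. The median log2 change was 0.25 beside 0.18 over all probes. One gene, Adra1d, had an unadjusted p under 0.05 (beside 18.5% of all probes). It was also the only tested receptor whose groups did not overlap. Every heroin rat was above every saline rat there, as at 1.47% of the tested probes with a signal on every array. With the 75th percentile as the scale its groups overlapped. The signal of every rat is drawn in the plot of receptor probes.

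**Figure D1:**
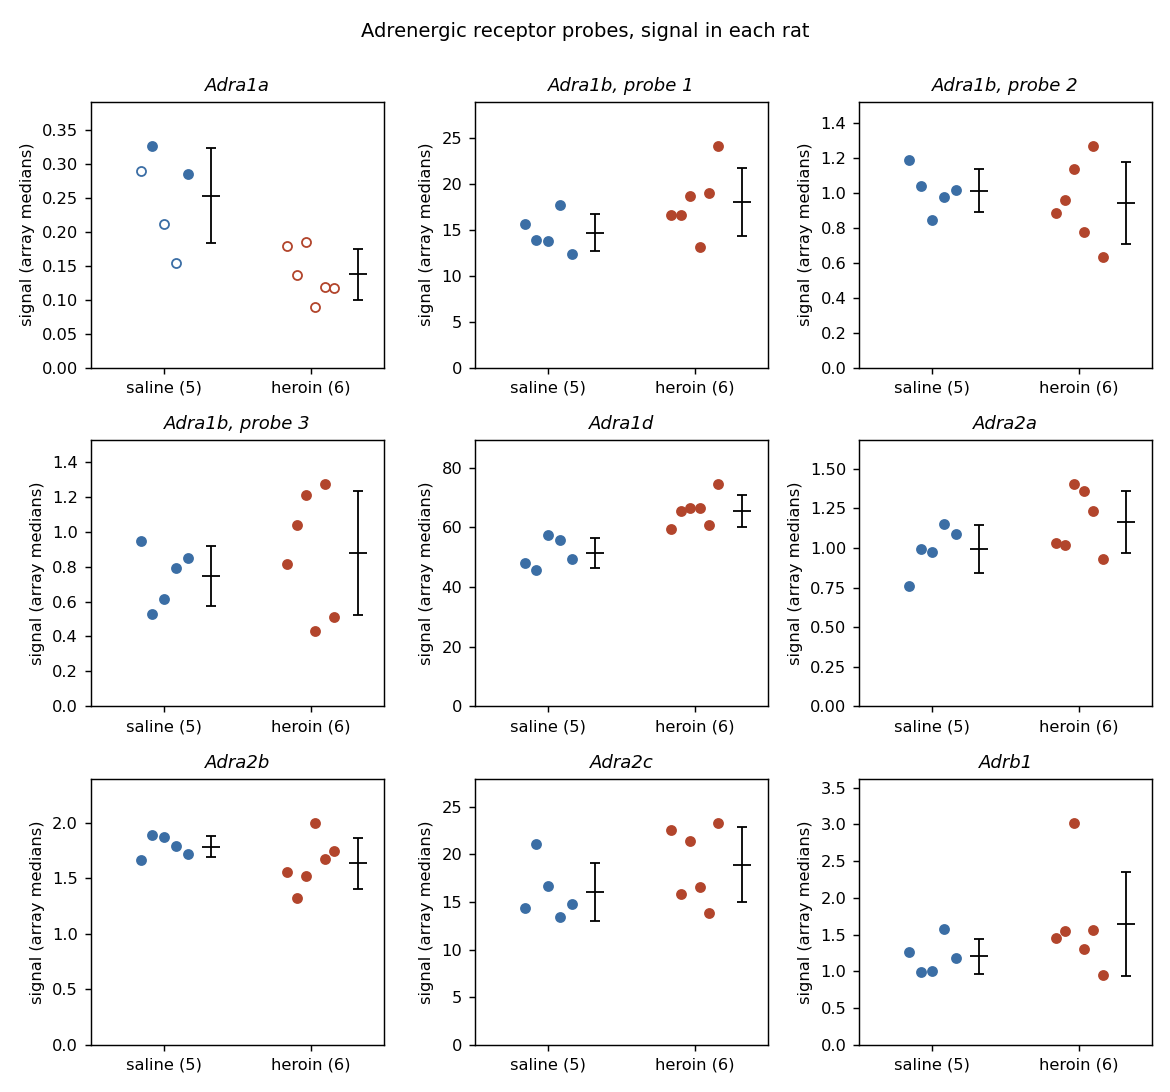
Signal of each of the 9 receptor probes in units of the array median (vertical axes start at 0) for 5 saline rats and 6 heroin rats, in replicate order, with the mean and SD at the right of each group. Filled points were well above background and open points were not. The 6 heroin rats lie above the 5 saline rats for Adra1d (59.4 to 74.4 against 45.7 to 57.3), and the groups overlap at every other probe. With this scaling, 1.47% of the tested probes with a signal on every array have all heroin rats above all saline rats.

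Adra1d, an alpha-1 receptor, had signals of 48.2, 45.7, 57.3, 55.9 and 49.4 array medians in saline replicates 2 to 6. In heroin rats the lowest was 59.4, the median 65.9 and the highest 74.4. The lowest heroin rat, replicate 1, was thus above the highest saline rat, replicate 4, by a small margin. Means were 65.5 ± 5.27 (SD, n = 6) in heroin and 51.3 ± 5.03 (SD, n = 5) in saline rats. The log2 difference was 0.35 ± 0.12 (SE; 95% interval 0.11 to 0.60), or 1.28-fold, which misses the 1.4-fold threshold. The unadjusted limma p was 0.00843 and the adjusted p 0.263. The exact permutation p, two-sided over all divisions of the rats, was 0.00216, the smallest this design can give. Of the tested probes with a signal on every array, 1.47% also had every heroin rat above every saline rat.

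Relative to the median shift of all probes, the Adra1d difference was 0.17. After quantile normalization, which gives all arrays the same distribution, it was 0.09 (exact permutation p = 0.158) and the groups overlapped, with log2 signals of 11.80 to 12.02 in heroin and 11.71 to 11.95 in saline rats. With the 75th percentile it was 0.14, again with overlap. The signal was far from the detection limit, at 175 to 298 times the lowest signal that counted as well above background on the same array.

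Adra1b, the second alpha-1 receptor, was read by 3 probes that did not move together. At the first and brightest probe, saline replicates 2 to 6 gave 15.6, 13.9, 13.8, 17.7 and 12.4 array medians, and heroin rats ran from 13.1 through a median of 17.6 to 24.1. The highest value was heroin replicate 6, and heroin replicates 1, 2 and 4 lay within the saline range. Heroin rats averaged 0.28 ± 0.16 (SE) higher on the log2 scale, with an unadjusted limma p of 0.0897, an adjusted p of 0.302 and an exact permutation p of 0.0909.

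The second Adra1b probe, in coding sequence far upstream, read 1.19, 1.04, 0.846, 0.977 and 1.02 array medians in saline replicates 2 to 6 and 0.633 to 1.27 in heroin rats, with a median of 0.924. Here heroin replicate 6, which was highest at the first probe, was the lowest of all rats. The mean difference was -0.13 ± 0.17 (SE) on the log2 scale, with an exact permutation p of 0.491. At the third probe, which carries the motif shown above, saline replicates 2 to 6 gave 0.945, 0.531, 0.615, 0.794 and 0.847, and heroin rats 0.43 to 1.27 with a median of 0.925. The heroin rats spread over a wider range than the saline rats at both dim probes and enclosed them at each. That probe's log2 difference was 0.15 ± 0.27 (SE; exact permutation p = 0.634), and its sign was negative with the 75th percentile (-0.07) and with the detected-probe scaling (-0.04). These dim probes were 1.43 to 5.94 times the lowest signal counted as well above background on their arrays, whereas the first probe was at 43.8 to 88.6 times.

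Adra1a, the third alpha-1 receptor, was not well above background on any of the 6 heroin arrays and was so on 2 of the 5 saline arrays, replicates 3 and 6. Its saline signals were 0.289, 0.326, 0.211, 0.154 and 0.285 array medians in replicates 2 to 6, and its heroin signals ran from 0.0895 through 0.128 to 0.185. Saline replicate 5 lay inside the heroin range and the other saline rats above it. The mean log2 signal was -2.91 in heroin and -2.03 in saline rats, a measured difference of -0.87. In heroin rats this level is only a bound. The mean of the heroin arrays' lower limits, -1.89, was above the saline mean, so no fold is given, and the gene was outside the tested table.

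Adra2a, the main alpha-2 receptor of prefrontal neurons in textbook accounts, read 0.759, 0.992, 0.974, 1.15 and 1.09 array medians in saline replicates 2 to 6. Heroin rats ran from 0.932 through a median of 1.13 to 1.4. Heroin replicates 3, 4 and 5 were above every saline rat, and replicates 1, 2 and 6 were among them. On the log2 scale heroin rats averaged 0.23 ± 0.15 (SE; 95% interval -0.09 to 0.55) higher, with an unadjusted limma p of 0.152 and an exact permutation p of 0.149. After quantile normalization it was 0.22, and with the 75th percentile 0.01.

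Adra2c, the alpha-2 receptor enriched in striatum and also found in cortex, read 14.4, 21.1, 16.7, 13.4 and 14.8 array medians in saline replicates 2 to 6 and 13.9 to 23.3 in heroin rats, with a median of 19.0. Heroin replicates 1, 3 and 6 and saline replicate 3 formed the upper end, and the remaining rats of both groups mixed. Their log2 means differed by 0.23 ± 0.17 (SE; 95% interval -0.13 to 0.59; exact permutation p = 0.221). The difference had the opposite sign after quantile normalization, at -0.02.

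Adra2b, an alpha-2 receptor best known from vascular tissue and thalamus, was the single gene whose brightest tested probe had a lower mean in heroin rats. Saline replicates 2 to 6 gave 1.67, 1.89, 1.87, 1.79 and 1.72 array medians, a narrow range, and heroin rats gave 1.32 to 2.00 with a median of 1.62. Heroin replicates 1, 2 and 3 lay below every saline rat and replicate 4 above every one. In log2 terms the heroin mean minus the saline mean was -0.14 ± 0.13 (SE; 95% interval -0.41 to 0.13), with an unadjusted limma p of 0.286 and an exact permutation p of 0.193. Relative to the median shift of all probes it was -0.32. With the 75th percentile it was -0.36 (exact permutation p = 0.0216; adjusted limma p = 0.439), and with the detected-probe scaling -0.33. Each of these 3 values moves all probes by nearly the same amount, whatever their brightness, so they are not separate evidence. Whether that shift holds for a probe this dim was not tested. The dim Adra2a probe moved only from 0.23 to 0.22 after quantile normalization. With the 75th percentile, Adra2b had an unadjusted limma p of 0.0134, and 2440 of the 25555 probes had one under 0.05. After quantile normalization the Adra2b difference was -0.24, with an unadjusted limma p of 0.0454 and an exact permutation p of 0.0433. With that normalization, 7.7% of all tested probes had an unadjusted limma p under 0.05.

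Adrb1, the beta-1 receptor, had the widest spread over the 11 rats among the brightest probes of the 6 tested genes. Saline replicates 2 to 6 gave 1.26, 0.996, 1.01, 1.58 and 1.18 array medians, and heroin rats gave 0.958 to 3.02 with a median of 1.51. A single rat, heroin replicate 3 at 3.02, was above all saline rats, while heroin replicate 6 was below them all. The difference between the log2 means was 0.38 ± 0.23 (SE; 95% interval -0.12 to 0.87), with an unadjusted limma p of 0.127, an adjusted p of 0.337 and an exact permutation p of 0.193. Without heroin replicate 3 it was 0.18 (limma, adjusted p = 0.567), and without heroin replicate 6 it was 0.51 (limma, adjusted p = 0.213).

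Beyond the 7 gene names, 2 further probes carry an accession as their name and a receptor gene in their description. They were singled out after their values were seen. One, named D00634 and described as the beta-1 receptor gene, lay on the same strand at chr1:263238924-263238983, 1193 bases downstream of the Adrb1 probe. It read 15.8, 14.5, 18.7, 26.7 and 14.7 array medians in saline replicates 2 to 6 and 18.3 to 35.7 in heroin rats, with a median of 23.9. Heroin replicate 3 was the highest heroin rat and saline replicate 5 the highest saline rat at this probe, as they were at the Adrb1 probe. Heroin replicate 6, the lowest rat at the Adrb1 probe, was the second highest heroin rat here. Its log2 difference was 0.45 ± 0.19 (SE; unadjusted limma p = 0.0324, adjusted p = 0.263, exact permutation p = 0.0606), and 0.20 after quantile normalization. The groups overlapped.

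The other, named AF366899 and described as the alpha-2B receptor gene, lay 2289 bases downstream of the Adra2b probe at chr3:114776510-114776569. It was well above background on 3 of 6 heroin and 3 of 5 saline arrays and was not tested. Its signals ran from 0.247 to 0.462 array medians in heroin and from 0.18 to 0.593 in saline rats, so the heroin rats lay within the saline range.

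**Figure D2:**
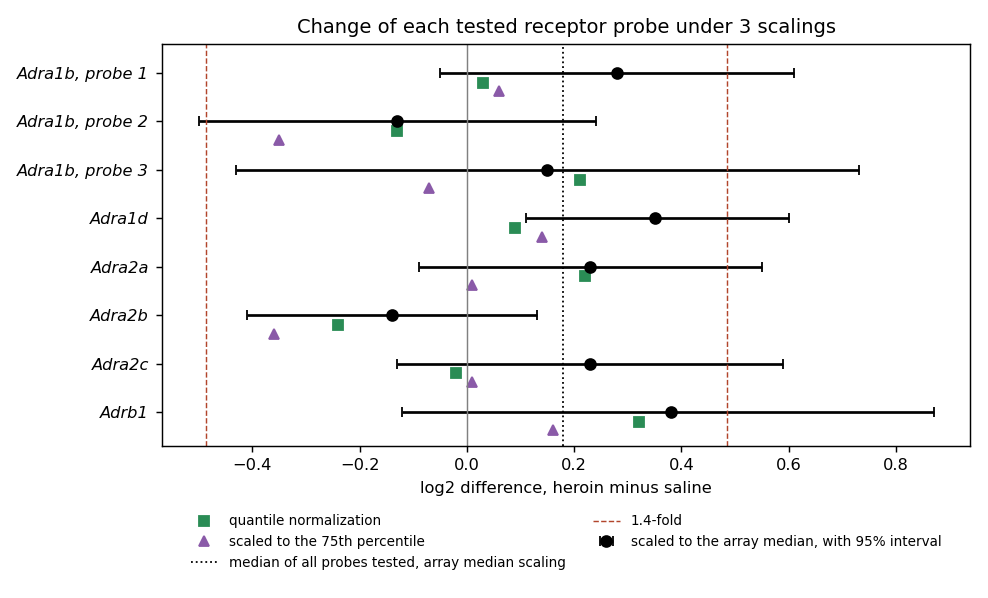
Log2 difference in mean signal, heroin minus saline, for the 8 tested receptor probes. Black points with 95% intervals use the array median as the scale, squares use quantile normalization and triangles the 75th percentile. The dotted line is the median of the tested probes, 0.18, which is not a fixed offset for every probe, and dashed lines mark 1.4-fold. The Adra1d interval, 0.11 to 0.60, is the only one that excludes 0, but it includes the dotted line at 0.18. The Adra2b interval, -0.41 to 0.13, lies below that line. The Adra1d points under the other scalings lie at 0.09 and 0.14.

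The scalings changed what could be said of the family. The median change over the 6 genes was 0.25 with the array median and 0.06 after quantile normalization, beside 0.18 and 0.01 over all probes. After quantile normalization Adra2a and Adrb1 were at 0.22 and 0.32, and Adra1b (first probe), Adra1d and Adra2c at 0.03, 0.09 and -0.02. With the 75th percentile Adra2a was at 0.01 and Adrb1 at 0.16, and with the detected-probe scaling they were at 0.04 and 0.19. After quantile normalization no receptor had all heroin rats above all saline rats, a pattern that 0.329% of the probes then had.

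The arrays were scanned in 6 scans, and 5 of these held a heroin and a saline array of the same replicate number. Heroin replicate 1 was scanned without a saline array. Within these 5 scans, Adra1d was higher in the heroin rat in all 5, by 0.44, 0.54, 0.21, 0.12 and 0.59 on the log2 scale for replicates 2 to 6. With the replicate number as a block, which is also the scan, its difference was 0.38 (limma, adjusted p = 0.457). The median over all probes with that block was 0.173. The share of all probes that were higher in the heroin rat in all 5 scans was not counted. Adra1b (first probe), Adra2a and Adra2c were higher in the heroin rat in 4 of the 5 scans, and Adra2b in 2. Adrb1 was higher in 3, and its within-scan differences ran from -0.31 for replicate 6 to 1.6 for replicate 3. The array suffix in the file headers was 4 for all 6 heroin arrays and 3 for all 5 saline arrays, so a difference between these array places and a difference between the treatments cannot be told apart.

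**Figure D3:**
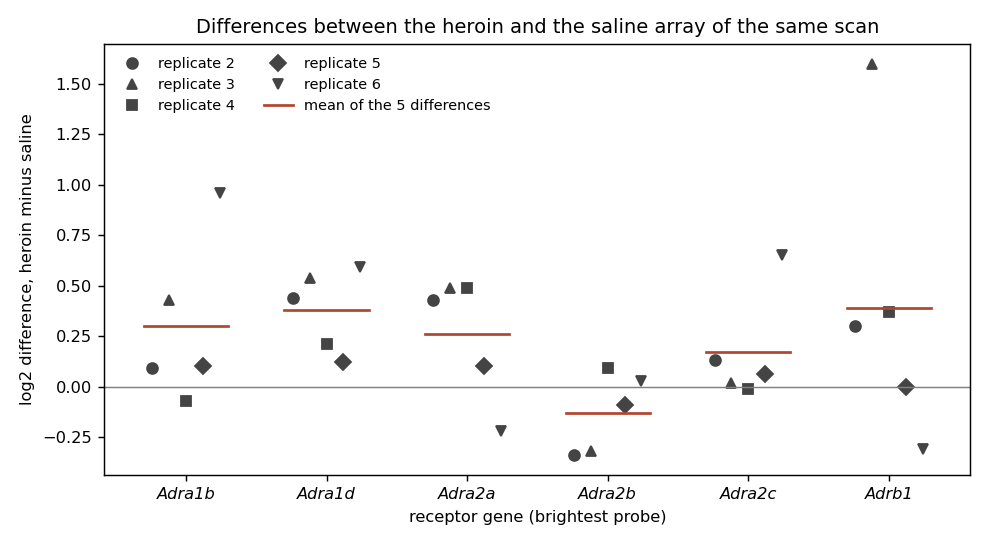
Log2 difference between the heroin and the saline array of the same scan, for the brightest probe of each tested receptor (1 symbol per replicate number, 5 scans, lines at the mean). All 5 Adra1d differences are above 0 (0.12 to 0.59), and Adrb1 spreads from -0.31 to 1.6. With the replicate number as a block, the median change of the tested probes was 0.173.

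No rat was high or low across the whole family. Among the 6 brightest probes, heroin replicate 6 was the highest heroin rat at 3 and the lowest at 2, and heroin replicate 3 was the highest at 2 and never the lowest. For heroin replicate 6 the 3 were the bright probes of Adra1b, Adra1d and Adra2c, and the 2 were the dim probes of Adra2a and Adrb1. Its array had the lowest median, 42.7 intensity units, and the lowest array weight, 0.26. The part of this array's brightness in the probe differences was not tested. Among saline rats, replicate 5 was the highest at 3 and the lowest at 1, and replicate 3 was the highest at 2 and the lowest at 2.

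For each tested receptor the 3 named genes with the most similar profile over the 11 rats were found among 6225 probes, by the root mean square difference of centred log2 signals. For Adra1d these were Capza2, Baalc and Rbm34, with differences of 0.0672, 0.0719 and 0.075 beside a spread of Adra1d itself of 0.22 (SD). For Adra1b they were Gss, Statip1 and Tpm3 (0.111 to 0.123, own SD 0.28). For Adra2a they were Igbp1, Cd59 and Ggps1 (0.1 to 0.107, own SD 0.254), and for Adra2c Kcnj11, Ltbr and Cabp1 (0.123 to 0.136, own SD 0.298). Adra2b was nearest to Insl3, Slpil2 and Gab2 (0.106 to 0.112, own SD 0.168), and Adrb1 to Trim32, Hspa8 and Cap1 (0.161 to 0.168, own SD 0.465). After quantile normalization Gss, Slpil2 and Kcnj11 ranked first for Adra1b, Adra2b and Adra2c, whereas Igbp1 fell to place 228 for Adra2a.

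The genes around the receptors were taken as lists of 52 genes in all, of which the array files name 46 and 44 were tested. Of these 44, 2 passed both thresholds as higher in heroin rats (beside 1.79% of all tested probes) and 0 as lower (beside 0.923%). The counts for each list below stand beside the same shares. The signs of the 44 were positive for 41 (93.2%), beside 78.7% of all tested probes, and the median log2 change was 0.20 beside 0.18. These shares are not of like kind, since a list gene stood by its brightest tested probe and the 78.7% counts every tested probe. After quantile normalization the medians were 0.03 and 0.01.

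Among genes that make, store, take up or degrade noradrenaline, 0 of 6 tested passed, with a median change of 0.14, and 0.12 after quantile normalization. Th, tyrosine hydroxylase at the entry of catecholamine synthesis, was at 0.628 to 0.866 array medians in heroin and 0.62 to 0.772 in saline rats, with a log2 difference of 0.02 ± 0.13 (SE). Dbh, which makes noradrenaline from dopamine, was well above background on 2 of 6 heroin and 3 of 5 saline arrays, and Slc6a2, the noradrenaline transporter, on 1 and 0. Neither was tested. Maoa, a mitochondrial enzyme that degrades noradrenaline, was at 8.33 to 11.2 in heroin and 7.66 to 10.1 in saline rats (log2 difference 0.23, exact permutation p = 0.0541), and -0.02 after quantile normalization.

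In the Gq arm of the alpha-1 receptors 0 of 9 tested genes passed, and in the Gs arm of the beta receptors 0 of 13, with medians of 0.16 and 0.23. In the Gi and Go arm of the alpha-2 receptors 1 of 10 passed, with a median of 0.23. This was Gnai1, an inhibitory G-protein alpha subunit. Its saline signals were 1.48, 1.44, 2.04, 3.72 and 1.86 array medians in replicates 2 to 6, and heroin rats ran from 2.66 through 3.05 to 3.47. All heroin rats were above 4 of the saline rats, and saline replicate 5 was above every heroin rat. The log2 difference was 0.63 ± 0.21 (SE; unadjusted limma p = 0.00804, adjusted p = 0.263, exact permutation p = 0.0325), and 0.51 after quantile normalization, where it still passed both thresholds. Kcnj3, a potassium channel subunit opened by these G proteins, was at -0.05 by its brightest probe and did not pass. Of its 4 probes, 2 others passed both thresholds in opposite directions, at -0.49 (SE 0.18; exact permutation p = 0.039) and 0.54 (SE 0.2; exact permutation p = 0.0411) on the log2 scale. Each had an adjusted limma p of 0.263 and groups that overlapped, and the gene was named after these values were seen.

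Among genes that dampen receptor signalling, 1 of 6 tested passed, with a median of 0.15. This was Rgs2, which speeds the switching off of Gq. Saline signals were 47.8, 40.7, 53.7, 63.7 and 51.7 array medians in replicates 2 to 6, and heroin rats ran from 63.5 through 69.1 to 110.0. The lowest heroin rat and the highest saline rat nearly coincided. Heroin rats exceeded saline rats by 0.53 in log2 signal (SE 0.16; unadjusted limma p = 0.00497, adjusted p = 0.263, exact permutation p = 0.00433). It was 0.27 after quantile normalization (exact permutation p = 0.0152; adjusted limma p = 0.653), where it no longer passed the thresholds.

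**Figure D4:**
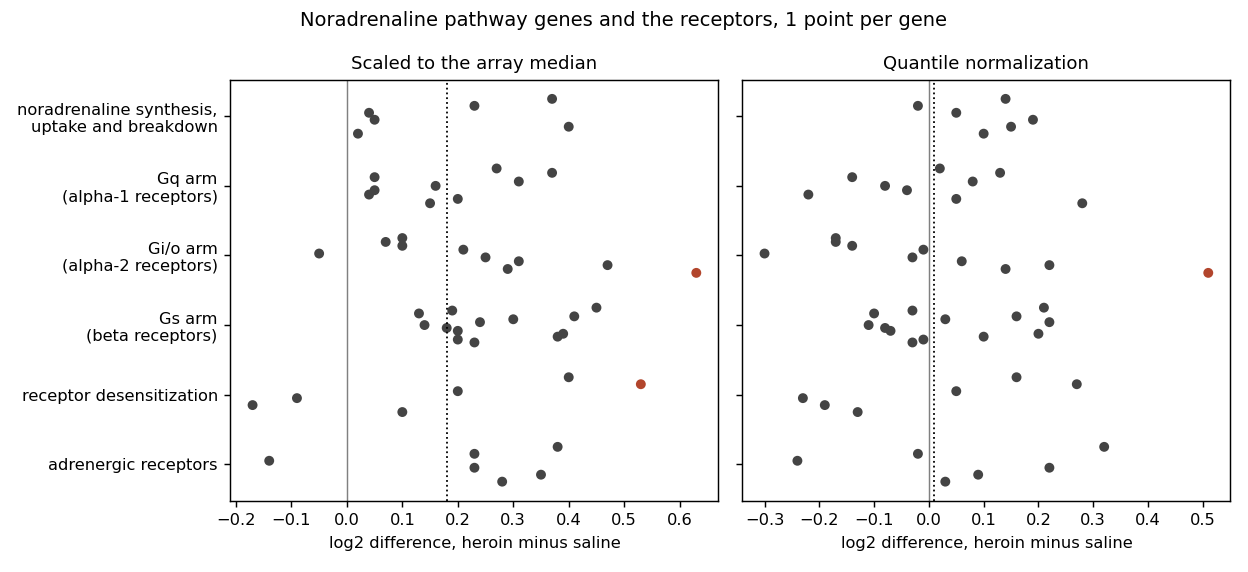
Log2 difference, heroin minus saline, of the 44 tested pathway genes and the 6 tested receptors, 1 point per gene, with the array median as scale (left) and after quantile normalization (right). Dotted lines are the medians of all tested probes, 0.18 and 0.01, and red points passed both thresholds, Gnai1 on both sides and Rgs2 on the left. With the array median as scale, 1.79% of all tested probes passed as higher in heroin rats.

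All 3 excitatory neuron markers and all 5 interneuron markers that the files name were well above background on all 11 arrays, while of the 4 markers of noradrenergic cell bodies Th and Slc18a2 were so too and Dbh and Slc6a2 were not. Of 45 tested markers of 11 tissue and cell classes, 1 passed both thresholds, beside 1.79% (higher) and 0.923% (lower) of all tested probes. This was the interneuron peptide gene Vip (log2 difference 0.49, and 0.23 after quantile normalization, where it did not pass). Summed excitatory neuron markers were at 70.1 to 107.0 array medians in heroin and 61.4 to 87.1 in saline rats, and interneuron markers at 294.0 to 409.0 and 233.0 to 324.0. Smooth muscle and pericyte markers, which bear on vascular receptors, were at 21.4 to 36.6 and 24.0 to 25.5, and meningeal markers at 133.0 to 474.0 and 144.0 to 267.0. Striatal markers, which bear on Adra2c, were at 8.04 to 11.6 in heroin and 8.21 to 22.6 in saline rats, with a median log2 change of -0.13 over 4 tested genes, and -0.31 after quantile normalization. Without saline replicate 5, the rat with the high striatal sum, Adra2c differed by 0.17, Adra1d by 0.39 and Adrb1 by 0.48 on the log2 scale. The median over all probes was then 0.235, against 0.184 with all 11 rats. The part of the marker differences in the receptor values was not tested.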

How the data were processed

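Male rat medial prefrontal cortex was measured on single-colour Agilent arrays, 1 per rat (6 heroin, 5 saline). The deposited intensity of a spot had been background-subtracted and detrended by Feature Extraction (9.5.1.1 per the file headers) and not scaled between arrays. The authors also deposited a ratio for each of 23670 probes around its median, which was used as an alternative. Here, control and flagged spots were left out, 5 was the lowest intensity allowed, and signals were divided by the array's 50th percentile of non-control probes before taking log2. Detection required at least 0.5 of a probe's spots to be well above background. A tested probe needed detection on all 11 arrays and usable spots on at least 2 arrays per group, a condition added after the data were seen. Groups were compared with limma 3.58.1 in R 4.3.3 (lmFit and eBayes, two-sided, Benjamini-Hochberg over 25555 probes), and single probes also by an exact permutation test over every division of the 11 rats. A gene's brightest probe stood for it. The fit was tested on simulated data. The number of arrays limits the precision.

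The members and lists were chosen with earlier results of these data known. The genes described were all members, list genes past both thresholds, Th, Dbh, Slc6a2 and Maoa, and the 3 named genes most like each tested receptor. Probes were counted as named genes where the symbol had the rat form and the accession was a RefSeq mRNA, which was decided after the data were seen. Receptors other than these 7, and 1 gene of the pathway lists, are not reported here. Alternatives were scaling (75th percentile, detected probes, quantile), normexp (offset 50), floor after scaling, the authors' ratios, flagged spots kept, no filter or detection in 1 group, the methods' t-test, trend and robust eBayes, array weights, the replicate number or scan as a block, the mean of a gene's probes, and leaving out each rat.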

Additional observations from a re-analysis of the deposited data

Results flagged for a closer look

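Among 30 groups of rats examined (each receptor probe and each named pathway gene, by treatment), 1 held a rat far from the rest of its group. Such a rule picks out about 5% of groups by chance. No receptor probe was involved. For Rgs2, heroin replicate 6 was at 110.0 array medians and the other heroin rats at 63.5 to 73.5.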

How the results depend on the processing

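The number of probes past both thresholds, 694, was 456 after quantile normalization, 126 with normexp, 1560 with no detection filter, 1066 with detection in 1 group, 309 with the methods' t-test and 2489 with array weights. Leaving out 1 rat gave 342 to 2352, where 342 came from dropping saline replicate 2, 394 from dropping saline replicate 3 and 2352 from dropping saline replicate 5. The number of receptor genes past both thresholds was 0, and 1 under 2 alternatives. With no detection filter, where 1560 of 40980 probes passed, it was Adra1a (measured log2 change -0.87; limma, adjusted p = 0.36). Adra1a was not well above background on any heroin array, so its heroin level is only a bound and this is not a call. With array weights, where 2489 of 25555 probes passed, it was Adrb1 (0.51; limma, adjusted p = 0.0546). Of 207 receptor probe values under 26 alternatives, 3 changed sign: the third Adra1b probe at -0.07 with the 75th percentile and -0.04 with the detected-probe scaling, and Adra2c at -0.02 after quantile normalization. The cause was not tested. Over the settings without 1 rat, the Adra1d change ran from 0.31 to 0.40, with limma adjusted p of 0.0629 to 0.508. With array weights its adjusted p was 0.0218 and 8429 of 25555 probes had one under 0.05.

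With the replicate number as a block 791 probes and 0 receptor genes passed. Same-numbered arrays correlated at -0.237 to 0.384 in their deviations from the group means, and 1 of 5 heroin arrays correlated best with its own number. The sample titles do not say whether a shared number marks a yoked pair, and such correlations cannot settle it. The main comparison took the samples as unpaired. Dim probes (Adra1a, Adra2a, Adra2b, Adrb1 and 2 of the Adra1b probes) are limited by their closeness to background.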
